A study of Mus musculus with 7 samples.

Results

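The genes described here are the 36 transcripts that encode the core machinery of autophagosome formation together with the ATG8 family, to which LC3b belongs. They were chosen by function, by gene symbol, without a rule on measured values, although earlier results of these data were known. All 36 were found among the 52740 gene identifiers of the series, all had at least 1 count in every library, and all were among the 16990 genes that passed the filter on low counts. Messenger RNA of mouse retinal pigment epithelium (RPE), the cell layer that supports the photoreceptors and takes up their shed outer segments, was sequenced in 4 mice of the WT group, of which 1 was male, and in 3 mice of the LC3b-/- group, of which 1 was male. All mice were labelled 24 months old with no treatment given, and each gave 1 library without pooling. The LC3b-/- mice came from the constitutive knockout strain B6;129P2-Map1lc3btm1Mrab/J and the WT mice from C57BL6/J, so that strain background and the targeted allele cannot be told apart. Hyaluronidase and trypsin were used to free the RPE from eyecups without cornea, ciliary body and lens. Libraries are named here by group, sex (F or M) and mouse number, and per-library values are always given in the order F1, F2, F3, M1 for WT and F1, F3, M for LC3b-/-. The sample titles hold a further number that the labels do not explain. It is the same for all WT mice, another for LC3b-/- F1 and F3, and different again for LC3b-/- M, so whatever it marks cannot be told apart from genotype.

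Autophagy encloses cytoplasmic material in a double membrane, the autophagosome, and delivers it to lysosomes. A kinase complex around ULK1 starts the process, a class III phosphatidylinositol 3-kinase (PI3K) marks the membrane with PI3P, WIPI proteins read that mark, ATG2 and ATG9 proteins supply lipid, and a conjugation system related to ubiquitin attaches ATG8 proteins to the lipid phosphatidylethanolamine. In RPE part of the same conjugation system also places LC3 on phagosomes that hold outer segments, a process called LC3-associated phagocytosis.

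The ATG8 family of the mouse has an LC3 branch, here Map1lc3a and Map1lc3b, and a GABARAP branch, here Gabarap, Gabarapl1 and Gabarapl2. ATG4 proteases cut each ATG8 protein behind a glycine near its end, and lipid is then attached to that glycine. The last 30 coding bases of each gene are shown, stop codon included, because they hold this site and because they show how far related family members differ in sequence. They were read from GENCODE vM39 on GRCm39, all on the + strand, with the codon of the glycine in capitals.
Map1lc3a, chr2:155119528-155119557: tacgcctcccaagaaaccttcGGCttctga
Map1lc3b, chr8:122323480-122323509: gagacattcGGGacagcaatggctgtgtaa
Gabarap, chr11:69885321-69885350: tacagtgatgaaagcgtctatGGTctgtga
Gabarapl1, chr6:129518101-129518130: tacagtgatgaaagtgtctatGGAaaatga
Gabarapl2, chr8:112679008-112679037: tacagcggagagaacacttttGGCttctga
The glycine is codon 120 in both LC3 genes and codon 116 in the GABARAP genes. It is followed by 5 further codons before the stop in Map1lc3b and by 1 in each of the other genes. Over the whole coding sequence Map1lc3a and Map1lc3b were identical at 74.7% of aligned bases and Gabarap and Gabarapl1 at 74.9%, while pairs of an LC3 and a GABARAP gene were identical at 50.4% to 55.5%. Near-identical copies of ATG8 genes elsewhere in the genome (at least 95% identity over at least 100 bases) were pseudogenes. Those of Map1lc3b held at most 7 counts each over all libraries, and those of Gabarapl2 at most 37.

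Library totals ranged from 24495952 to 35616134 counts. Each library came from a different mouse and counted as 1 sample. Levels are given as CPM, counts scaled to library size with TMM factors, which even out differences in composition. The RNA of the groups also differed in cell type markers. Summed RPE markers reached 31423 to 49471 CPM in WT and 13748 to 29456 CPM in LC3b-/-, with 11 of 12 markers lower in LC3b-/- and none at 0 in all libraries. Summed keratins of the ocular surface epithelium reached 9.36 to 2450 CPM in WT and 3415 to 24264 CPM in LC3b-/-, with 8 of 8 higher. Photoreceptor markers ranged from 23.9 to 19824 CPM in WT and from 42 to 6875 CPM in LC3b-/-. Endothelial markers reached 343 to 1043 CPM in WT and 1159 to 1469 CPM in LC3b-/-, and fibroblast markers 328 to 1371 CPM and 836 to 1836 CPM. Markers of macrophages and microglia summed to 370.2 to 506 CPM and 237 to 455 CPM, of Müller glia to 9576 to 12338 CPM and 8219 to 9172 CPM, of erythrocytes to 182 to 542 CPM and 216 to 662 CPM, of skeletal muscle to 8.58 to 29.6 CPM and 11.7 to 34.7 CPM, and of lens to at most 2.69 CPM. In WT most of the Müller glia sum came from Apoe (mean 7710 CPM) and Glul (1985 CPM). Csf1r (266 CPM) likewise held most of the macrophage and microglia sum. Single markers of both lists went both ways, with 3 of 6 for Müller glia and 3 of 8 for macrophages and microglia higher in LC3b-/-. The part of these differences in the values below was not tested, and in bulk RNA fewer cells of a type and less RNA per cell cannot be told apart.

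Of the 36 autophagy genes, only Map1lc3b was differentially expressed between LC3b-/- and WT RPE with edgeR (a change of at least 1.5-fold whose p, adjusted over all genes tested, was under 0.05). Among all genes tested 0.235% were called by this rule. The other 35 log2 fold changes (LC3b-/- over WT) lay between -0.69 and 0.59, with standard errors (SE) of 0.09 to 0.33. The median of the 36 was -0.10, against 0.01 for all genes tested, with 15 higher and 21 lower in LC3b-/-. Before adjustment 10 of the 36 had a p under 0.05, which is 27.8% of them against 24.1% of all genes tested. Of these, 6 were lower in LC3b-/- (16.7% of the members, against 10.6% of all genes) and 4 were higher (11.1%, against 13.5%). For 8 members all LC3b-/- libraries were below all WT libraries (22.2%, against 10.3% of all genes) and for 5 they were above them (13.9%, against 12.0%). The share of members with an unadjusted p under 0.05 was thus near the background. The 22 members (61.1%) that neither reached it nor had separate groups have no share of all genes given beside them.

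**Figure D1:**
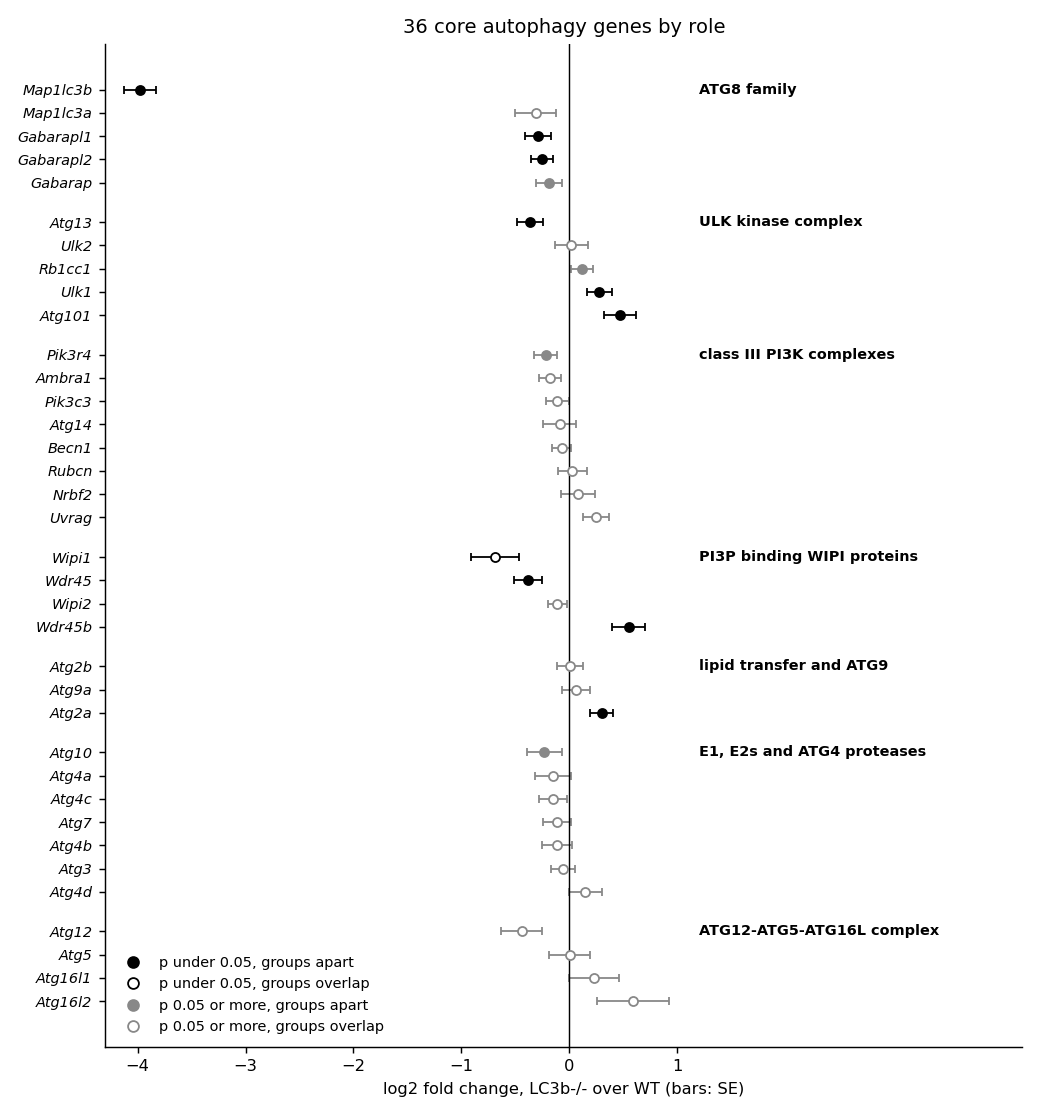
Log2 fold change of each of the 36 autophagy genes (x axis, LC3b-/- over WT, bars are SE) by role (y axis); black points have an unadjusted p under 0.05, and filled points have groups that do not overlap. Map1lc3b stands at -3.98, and the other 35 lie between -0.69 and 0.59.

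The targeted gene, Map1lc3b (ENSMUSG00000031812), fell in LC3b-/- RPE. It measured 130.1, 117, 104 and 110.1 CPM in the WT libraries and 6.77, 8.33 and 6.76 CPM in the LC3b-/- libraries. The log2 fold change was -3.98 (SE 0.15, adjusted p = 1.86e-04 with edgeR), and the gene had the smallest p of all genes tested. The LC3b-/- libraries kept 5.86% to 7.22% of the WT mean, which corresponds to 168 to 332 counts a library. The deposited counts are per gene and do not show which exons these remaining reads came from. All 7 libraries thus matched their genotype label.

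None of the other 4 ATG8 genes was higher in LC3b-/-. Gabarapl1, which encodes a GABARAP-branch protein, measured 178, 183, 160.4 and 163 CPM in the WT libraries and 127, 138 and 154 CPM in the LC3b-/- libraries (log2 fold change -0.29, SE 0.12, unadjusted p = 0.0422, adjusted p = 0.193). Gabarapl2, of the same branch, measured 93.7, 98.9, 105 and 93.7 CPM in WT and 82.4, 76.2 and 87.8 CPM in LC3b-/- (-0.25, SE 0.10, unadjusted p = 0.0410, adjusted p = 0.192). For both genes the groups did not overlap, and LC3b-/- M was the highest of its group. Gabarapl2 lies on the same chromosome as the targeted gene, with 9.64 Mb between them. Gabarap, the founding member of its branch, measured 225, 224, 224 and 241 CPM in WT and 212, 174 and 216 CPM in LC3b-/- (-0.19, SE 0.12, adjusted p = 0.382). Its groups did not overlap either, the highest LC3b-/- library being at 216 CPM and the lowest WT library at 224 CPM. Map1lc3a, the closest relative of Map1lc3b, measured 161, 157, 190.4 and 198 CPM in WT and 132, 114 and 181 CPM in LC3b-/- (-0.31, SE 0.19, adjusted p = 0.342). Its groups overlapped, since LC3b-/- M exceeded WT F1 and WT F2.

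**Figure D2:**
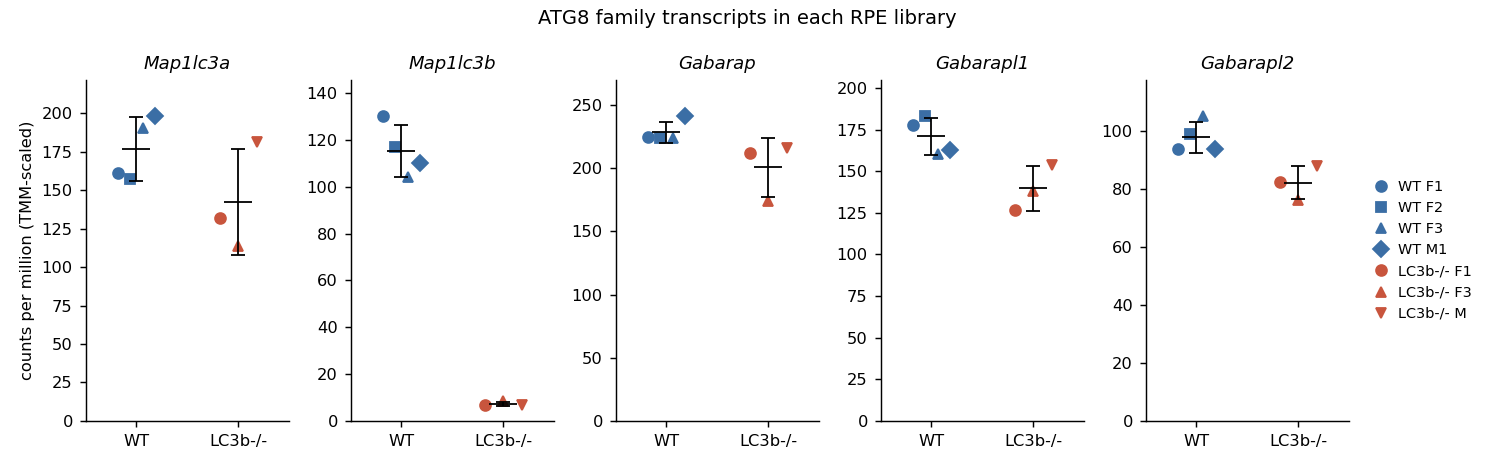
CPM (y axis, from 0, TMM-scaled) of the 5 ATG8 genes in each library (points), with the mean and SD of each group (black bars; n = 4 WT and 3 LC3b-/-). Map1lc3b fell to 6.76 to 8.33 CPM in the LC3b-/- libraries, and for Gabarap, Gabarapl1 and Gabarapl2 all LC3b-/- points lie below all WT points.

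To compare levels between genes, CPM were divided by transcript length, which gives RPKM. With the length of the CCDS transcript, which carries the standard protein, the WT order of the family was Map1lc3a (159 ± 18.7 RPKM, SD, n = 4), Gabarap (129.6 ± 4.68), Gabarapl1 (93.9 ± 5.97), Gabarapl2 (57.9 ± 3.29) and Map1lc3b (45.6 ± 4.42). In every WT library each gene exceeded the next in this order, although the 2 lowest, Gabarapl2 and Map1lc3b, changed places with the length of the longest transcript (27.2 and 27.9 RPKM). Within the family the annotated length of Map1lc3b differs most between definitions, from 2532 to 7617 bases, and its WT level moved accordingly from 45.6 to 15.1 RPKM. Of the other 31 members Wipi1 had the highest level under each length, at 58.9 RPKM with the CCDS length, 24 with the longest transcript and 21 with the union of exons. It thus lay within the range of the family with the CCDS length and the union of exons, and below it with the longest transcript. The order of the members after Wipi1 also depended on the length used. Becn1, for example, was at 18.3 RPKM and Atg3 at 20.2 RPKM with the CCDS length, against 10.9 and 5.79 RPKM with the union of exons. Atg16l2 was the lowest of the 36 under each length (0.707 ± 0.299 RPKM with the CCDS length).

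The summed level of the 5 ATG8 genes, with the union of all exons as length, was 319 ± 14.8 RPKM in WT (SD, n = 4) and 255 ± 38.4 RPKM in LC3b-/- (SD, n = 3), which is 79.8% of WT. The LC3b-/- libraries F1, F3 and M reached 248, 219.9 and 296 RPKM, all below the lowest WT library at 306 RPKM. Map1lc3b made up 4.76% of the WT sum and 0.385% of the LC3b-/- sum. Without it the other 4 genes summed to 304 ± 15.9 RPKM in WT and 254 ± 38.5 RPKM in LC3b-/-, with LC3b-/- M at 295 RPKM inside the WT range of 291 to 323 RPKM. With the CCDS length Map1lc3b made up 9.4% of the WT sum, the LC3b-/- sum was 76.2% of WT, and LC3b-/- M without Map1lc3b, at 422 RPKM, was just below the lowest WT library at 425 RPKM. No test was made on these sums.

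**Figure D3:**
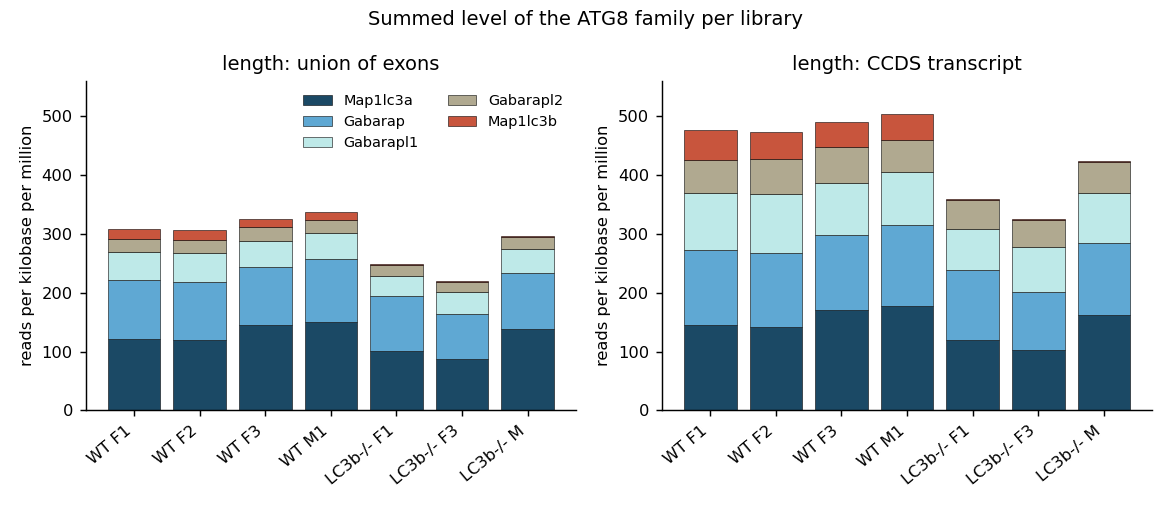
Summed RPKM of the 5 ATG8 genes in each library (bars, y axis from 0), coloured by gene, with the union of exons (left) or the CCDS transcript (right) as gene length. The LC3b-/- bars lack nearly all of the Map1lc3b part, and their total is lower than in any WT library under both lengths.

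Members of the ULK kinase complex, which receives the nutrient signal and starts autophagosome formation, lay on both sides of WT. Atg101, a subunit that stabilizes ATG13, measured 12.8, 14.5, 16.7 and 15.2 CPM in WT and 20.8, 17.8 and 22.7 CPM in LC3b-/- (log2 fold change 0.47, SE 0.15, unadjusted p = 0.0136, adjusted p = 0.128). Atg13, which holds the complex together, measured 51.5, 55.2, 64.5 and 63.8 CPM in WT and 42.7, 44.6 and 50.1 CPM in LC3b-/- (-0.36, SE 0.12, unadjusted p = 0.0210, adjusted p = 0.149). Ulk1, the kinase, measured 53.9, 41.6, 45.1 and 50.2 CPM in WT and 56.1, 60.4 and 57 CPM in LC3b-/- (0.28, SE 0.12, unadjusted p = 0.0465, adjusted p = 0.202). The groups did not overlap for these 3 genes, with LC3b-/- above WT for Atg101 and Ulk1 and below WT for Atg13, whose proteins act in 1 complex. Rb1cc1, which encodes the scaffold FIP200, also had separate groups, at 32.3, 34.9, 35.3 and 33.8 CPM in WT and 39, 36.1 and 35.9 CPM in LC3b-/-, but the difference was small (0.12, SE 0.10, unadjusted p = 0.256). The second kinase, Ulk2, was at 30.8 ± 2.12 CPM in WT and 31.2 ± 5.99 CPM in LC3b-/-.

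The class III PI3K complexes, which make PI3P, showed no member with an unadjusted p under 0.05, where 24.1% of all genes tested had one. With 8 genes this count says little. The 8 log2 fold changes ran from -0.22 to 0.25, with a median of -0.08. Pik3r4, the regulatory subunit known as VPS15, measured 28.5, 27.7, 30.9 and 30.1 CPM in WT and 25.8, 22.6 and 27.1 CPM in LC3b-/- (-0.22, SE 0.11, unadjusted p = 0.0894) and was the only one of the 8 with separate groups. Uvrag, the subunit of the complex that acts late and on endosomes, had the highest value of the complex (0.25, SE 0.12, unadjusted p = 0.0784), and Atg14, which takes its place in the complex that starts autophagosomes, was at -0.09 (SE 0.15). The catalytic subunit Pik3c3 (-0.11, SE 0.11), the scaffold Becn1 (-0.07, SE 0.09) and the regulators Ambra1 (-0.18, SE 0.10), Nrbf2 (0.08, SE 0.16) and Rubcn (0.03, SE 0.13), the last of which is needed for LC3-associated phagocytosis, all had overlapping groups.

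WIPI proteins bind PI3P on the forming membrane. Of their 4 genes, 1 was higher and 2 were lower in LC3b-/- at an unadjusted p under 0.05. Among all genes tested 13.5% were higher at this p and 10.6% lower, and the count over 4 genes was not tested. The smallest p of the members after that of Map1lc3b was in this group. Wdr45b, which encodes WIPI3, measured 18.6, 15, 15.4 and 16.5 CPM in WT and 28.6, 20.7 and 22.8 CPM in LC3b-/- (log2 fold change 0.55, SE 0.15, unadjusted p = 0.00729, adjusted p = 0.107 with edgeR). DESeq2, which called 9.80% of all genes against 0.235% with edgeR, gave Wdr45b an adjusted p of 0.0475. Wdr45b was not called there, since its log2 fold change of 0.53 was under the 1.5-fold threshold (0.585). Its relative Wdr45, which encodes WIPI4, measured 21.7, 17.9, 19.7 and 21.7 CPM in WT and 17.1, 14 and 15.4 CPM in LC3b-/- (-0.38, SE 0.13, unadjusted p = 0.0227, adjusted p = 0.153). For both genes the groups did not overlap, with Wdr45b higher and Wdr45 lower in every LC3b-/- library. Wdr45b kept an unadjusted p under 0.05 in each of the 7 fits that left out 1 library, and Wdr45 in 3 of them. Of the other members at this p in the main fit, Map1lc3b kept it in 7 fits, Atg101 and Wipi1 in 6 and Atg13 in 5. Gabarapl1 and Atg2a kept it in only 2 fits, and Gabarapl2 and Ulk1 in only 1. The annotated gene Gm45208, which overlaps Wdr45, held 0 counts over all libraries.

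Wipi1, which encodes a further PI3P effector, measured 107, 98.9, 139 and 143 CPM in WT and 63.3, 64.8 and 99 CPM in LC3b-/- (-0.69, SE 0.22, unadjusted p = 0.0144, adjusted p = 0.130). LC3b-/- F1 and F3 lay below every WT library, and LC3b-/- M was level with WT F2. The summed RPE markers had the same order in the LC3b-/- libraries, at 13748 CPM in F1, 16603 CPM in F3 and 29456 CPM in M. Gabarapl1, Atg13, Wipi2 and Atg4a had this order too, so it was not particular to Wipi1. The part of the RPE markers in these values was not tested. With DESeq2 Wipi1 was called (log2 fold change -0.71, adjusted p = 0.0399), as one of 2 members (5.56%), Map1lc3b being the other, where 9.80% of all genes were called. Wipi2, which recruits ATG16L1, was at 59.8 ± 2.83 CPM in WT and 55.5 ± 1.08 CPM in LC3b-/- (-0.11, SE 0.09).

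Among the lipid transfer proteins Atg2a measured 38, 32.9, 37.4 and 35.1 CPM in WT and 45.7, 47.1 and 39.3 CPM in LC3b-/- (0.30, SE 0.11, unadjusted p = 0.0305, adjusted p = 0.171). All LC3b-/- libraries were above all WT libraries, by the smallest margin in LC3b-/- M. Its relative Atg2b was at 29.2 ± 1.7 CPM in WT and 29.4 ± 3.31 CPM in LC3b-/-, and the scramblase gene Atg9a at 29.6 ± 3.48 and 30.8 ± 2.18 CPM. The groups of both overlapped.

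The genes that process and conjugate ATG8 proteins had no member with an unadjusted p under 0.05, where 24.1% of all genes tested had one. With so few genes this count says little. Of the 7 genes for the E1, the E2s and the ATG4 proteases, 6 were lower in LC3b-/-, with a median log2 fold change of -0.11. Atg10, the E2 for ATG12, measured 7.78, 9.57, 9.62 and 8.34 CPM in WT and 7.57, 7.7 and 7.38 CPM in LC3b-/- (-0.23, SE 0.16, unadjusted p = 0.197), and its groups were separated by less than 1 CPM. The E1 Atg7 (-0.11, SE 0.13) and the E2 for ATG8 proteins, Atg3 (-0.06, SE 0.11), had overlapping groups, as did the proteases Atg4a (-0.15, SE 0.17), Atg4b (-0.11, SE 0.14), Atg4c (-0.15, SE 0.13) and Atg4d (0.15, SE 0.15). The locus of Atg4d overlaps that of Kri1, and the longest match of the Atg4d coding sequence to a Kri1 transcript spans 184 bases. Reads there could be assigned to either gene unless strand was used in counting.

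In the ATG12-ATG5-ATG16L complex, which directs lipid attachment to the membrane, all groups overlapped. Among all genes tested 10.3% had every LC3b-/- library below every WT library and 12.0% above. Atg12 was at 82.2 ± 15.1 CPM in WT and 60.8 ± 12.5 CPM in LC3b-/- (-0.44, SE 0.19, unadjusted p = 0.0546), with LC3b-/- M at 75.2 CPM inside the WT range of 67.1 to 101 CPM. Atg5, its partner, was at 18.2 ± 3.26 and 18.2 ± 3.36 CPM. Atg16l1 was at 21.7 ± 5.16 and 25.5 ± 5.03 CPM (0.23, SE 0.23). Atg16l2 had the highest log2 fold change of the 36 but also the largest SE (0.59, SE 0.33, unadjusted p = 0.110), and WT F1, at 7.73 CPM, lay among the LC3b-/- values of 6 to 8.01 CPM.

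**Figure D4:**
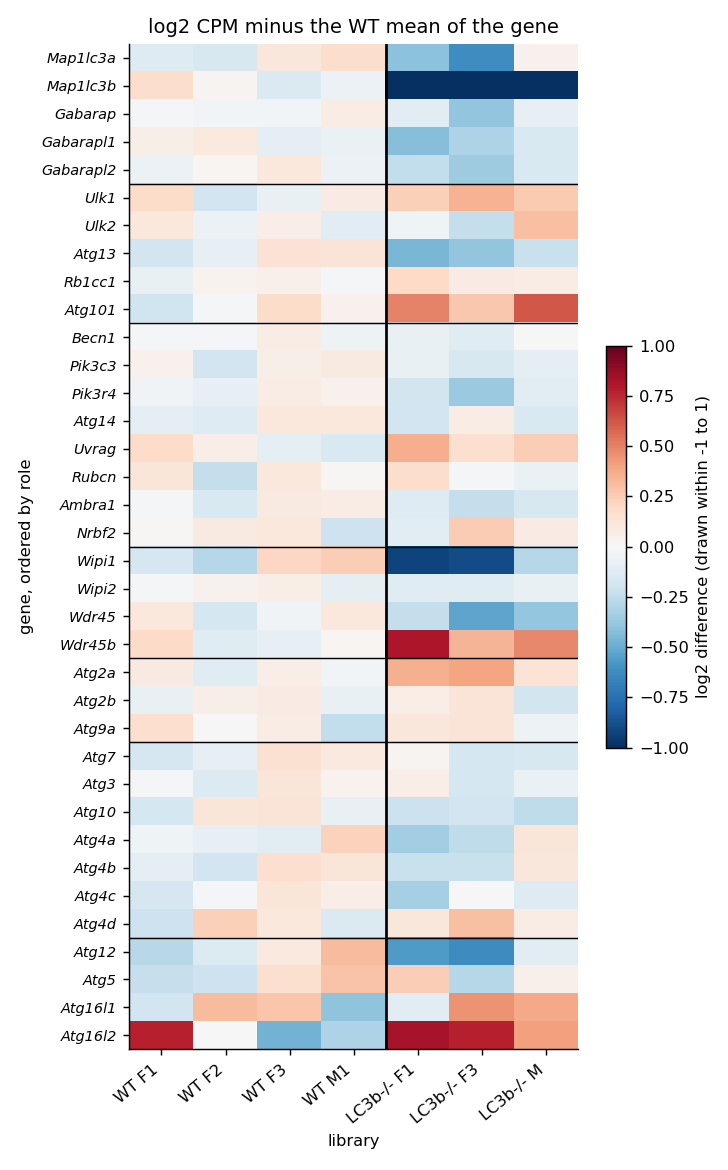
Log2 CPM of each autophagy gene (y axis, ordered by role) minus the mean of the WT libraries, in each library (x axis), coloured from -1 (blue) to 1 (red), with values outside drawn at the limit. In LC3b-/- M the genes Map1lc3a, Wipi1 and Atg12 are nearer to the WT mean than in LC3b-/- F1 and F3, while Wdr45, Wdr45b and Atg101 stand to the same side in all 3.

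A ratio of related genes within a library does not depend on how libraries are scaled, so 11 pairs of paralogs or alternative subunits were compared (exact permutation test, two-sided, 35 splits, smallest possible p 0.0286). The largest difference was in Wdr45 over Wdr45b. The log2 ratio was 0.23, 0.25, 0.35 and 0.40 in the WT libraries and -0.74, -0.56 and -0.56 in the LC3b-/- libraries, so that Wdr45 had the higher CPM in every WT library and Wdr45b in every LC3b-/- library. The means were 0.31 ± 0.08 (SD, n = 4) and -0.62 ± 0.10 (SD, n = 3), a difference of -0.93 (exact permutation p = 0.0286, Benjamini-Hochberg over the 11 pairs 0.314). Wdr45 and Wdr45b each had separate groups, in opposite directions, so their ratio had to separate the groups too. Its p thus restates the values of the single genes and is no further evidence. These are ratios of CPM that are not divided by length, so the sign in 1 library does not say which transcript was more abundant, whereas the difference between groups does not depend on length. With 7 libraries no pair could pass the adjustment over 11 pairs unless several reached the smallest p.

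The log2 ratio of Atg2a over Atg2b was 0.45, 0.11, 0.27 and 0.34 in WT and 0.58, 0.55 and 0.61 in LC3b-/-, again without overlap (difference 0.29, exact permutation p = 0.0571, adjusted 0.314). The other 9 pairs had overlapping groups, with adjusted p of 0.314 to 0.743. Within the ATG8 family the ratio of Gabarapl1 over Gabarapl2 was 0.80 ± 0.14 in WT and 0.76 ± 0.13 in LC3b-/-, and that of Map1lc3a over Gabarap -0.38 ± 0.14 and -0.51 ± 0.23.

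**Figure D5:**
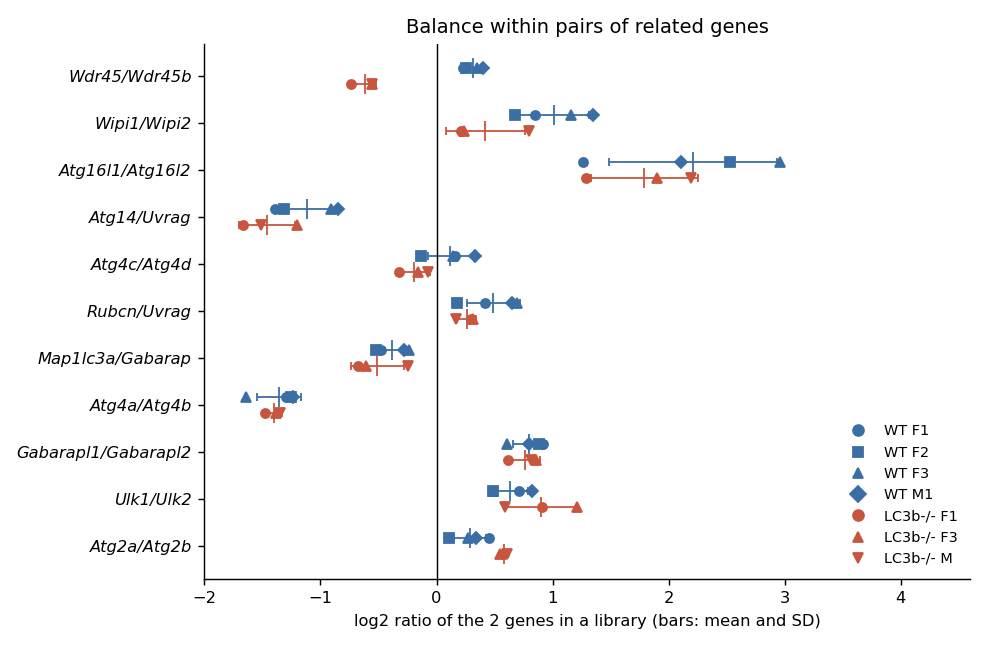
Log2 ratio of CPM (x axis) of 11 pairs of related autophagy genes (y axis) in each library (points), with the mean and SD of WT (blue, n = 4) and LC3b-/- (red, n = 3). Wdr45/Wdr45b lies between 0.23 and 0.40 in WT and between -0.74 and -0.56 in LC3b-/-.

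Other genes of the pathway, in lists set by function, held no gene called by edgeR. Of 11 further genes of autophagosome biogenesis, 3 had an unadjusted p under 0.05 and were higher in LC3b-/- (median log2 fold change of the list 0.01), where 13.5% of all genes tested were higher at this p and 10.6% lower. These were Vmp1, an ER scramblase (0.24, SE 0.09, unadjusted p = 0.0279), Sh3glb1, a membrane-bending partner of the UVRAG complex (0.61, SE 0.22, unadjusted p = 0.0282), and Atg9b, the relative of Atg9a (3.26, SE 0.70, unadjusted p = 0.00188), which rested on only 3 to 96 counts a library. Of 16 genes for fusion with lysosomes, 3 were higher and 4 lower at an unadjusted p under 0.05 (median -0.11), beside the same 13.5% and 10.6% of all genes. The 3 with the smallest p were Bloc1s1, a subunit of BORC, which positions lysosomes (-0.67, unadjusted p = 0.00238), Vps18, a HOPS tethering subunit (-0.44, unadjusted p = 0.0236), and the SNARE Ykt6 (0.31, unadjusted p = 0.0300).

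All 8 genes of LC3-associated phagocytosis, most of them subunits of the NADPH oxidase of phagocytes, had a log2 fold change above 0 (median 0.96), as had 8699 of the 16990 genes tested. Of the 8, 5 had an unadjusted p under 0.05, where 13.5% of all genes were higher at this p. The groups were separate for Ncf4 and Cyba and overlapped for the other 6, among them Rac1 (0.06, unadjusted p = 0.711) and Ncf1 (0.41, unadjusted p = 0.237). The 3 with the smallest p were the oxidase subunit Ncf4 (1.54, SE 0.34, unadjusted p = 0.00211, adjusted p = 0.0906), the catalytic subunit Cybb (1.06, SE 0.31, unadjusted p = 0.00992) and the membrane partner Cyba (0.62, SE 0.21, unadjusted p = 0.0209). Ncf4 stood at 1.42 ± 0.499 CPM in WT and 4.16 ± 0.984 CPM in LC3b-/-. These subunits are also made by macrophages and neutrophils. The 8 markers of macrophages and microglia ranged from -0.69 to 1.03 in log2 fold change (median -0.15), with 3 higher and 5 lower. Cd68, named after its values were seen, was the 1 marker of these with an unadjusted p under 0.05 (1.03, SE 0.34, unadjusted p = 0.0164), and all its LC3b-/- libraries were above all WT libraries. The part of such cells in the oxidase values was not tested. Of 11 subunits of mTORC1 and AMPK, which act on the ULK complex, only Mtor had an unadjusted p under 0.05, where 24.1% of all genes had one. Mtor was at 108 ± 14.5 CPM in WT and 74.1 ± 9.94 CPM in LC3b-/- (-0.54, SE 0.15, unadjusted p = 0.00781, adjusted p = 0.109), with separate groups. The groups of Prkag1 were separate too, with LC3b-/- below WT (-0.17, SE 0.10, unadjusted p = 0.131).

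The promoters of the members were searched for CACGTG, the core of the E-box that factors such as TFEB bind, and for TCACGTGA, which contains it. Both read the same on either strand. In the RefSeq promoter table (GRCm38.p6, 300 bases that span each start site) 29 of the 36 members had an entry, with 32 promoters. CACGTG was in 6 of them (18.8%, against 7.15% of 32851 promoters), those of Atg3, Atg5, Atg7, Atg14, Nrbf2 and Rubcn, and TCACGTGA in those of Atg3 and Nrbf2 (6.25%, against 0.974%). Rubcn also had another promoter entry, further upstream on its strand, which lacked CACGTG. Whether each entry is the main start site of its gene was not examined. None of the 6 genes with CACGTG had an unadjusted p under 0.05, where 24.1% of all genes tested had one. Their log2 fold changes lay between -0.11 and 0.08.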

How the data were processed

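RNA of RPE from 4 WT and 3 LC3b-/- mice was sequenced from stranded poly(A) libraries as 100 bp single reads. The authors quantified reads with Salmon on Gencode transcripts (GRCm39 per the labels), then summed to genes with tximeta, and deposited estimated counts as whole numbers, not scaled for depth. Trimming and Salmon options are not given in the sources used here. Here, edgeR 4.0.16 in R 4.3.3 was applied: filterByExpr (16990 genes kept), TMM, and the quasi-likelihood test with genotype alone. P-values were adjusted after Benjamini and Hochberg across every tested gene. A gene was called when it changed at least 1.5-fold with an adjusted p under 0.05. Log2 ratios used a prior count of 2. SD and n are over libraries, 1 per mouse. Totals of 24495952 to 35616134 counts set the precision of low genes (87 counts was the lowest value of a member).

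Members, lists, pairs and tests were chosen with earlier results of these data known, so no list was tested as a set. Named were all members with an unadjusted p under 0.05 or separate groups, the ATG8 genes, and up to 3 genes a pathway list with the smallest p. Alternatives were DESeq2 1.42.0, voom (limma 3.58.1), other scalings and filters, sex as a covariate, females only, a replicate block, counts summed with copies, other lengths, and each library left out. The CCDS length was added after the data were seen. Copies were searched with BLAST 2.17.0, and lengths came from GENCODE vM39. The fit was tested on simulated data. F1 and F3 occur in both groups, but only as names of mice, so the main fit has no block.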

Additional observations from a re-analysis of the deposited data

Results flagged for a closer look

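In 48 sets of 4 WT values (36 genes, 11 ratios and the ATG8 sum), 2 had 1 library far from the other 3 by Dixon's criterion for 4 values, where chance alone gives about 1 in 20. Gabarap in WT M1 measured 241 CPM, against 224 to 225 CPM in the other WT libraries. The log2 ratio of Atg4a over Atg4b was -1.64 in WT F3, against -1.30 to -1.24 in the others. The groups of LC3b-/-, with 3 libraries, were not examined in this way.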

How the results depend on the processing

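Map1lc3b stayed below WT in every alternative (log2 fold change -4.11 to -3.92 with 1 library left out) and lost its call only with the mouse name as a replicate block (-3.95). That block left 0 genes called, 0 members called and 2 members with an unadjusted p under 0.05, on 1 residual degree of freedom; deviations of same-named libraries correlated at 0.146 and 0.243, below those of some other pairs of libraries, and only 2 names are shared. Calls over all genes, 40 in the main fit, were 1831 with DESeq2 (2 members), 124 with voom, 78 without a filter, 197 with sex as a covariate, 96 in females only, and 11 to 485 with 1 library left out (485 without LC3b-/- M, 11 without LC3b-/- F3). Members with an unadjusted p under 0.05, 10 in the main fit, were 4 to 10 with 1 library left out: 6 without WT F2, 4 without WT M1, 4 without LC3b-/- F1 and 5 without LC3b-/- F3. Members with separate groups, 13 in the main fit, were 20 in females only and 14 to 20 with 1 library left out (20 without LC3b-/- M), which has fewer libraries to separate. Shares of all genes are not given for these member counts with fewer libraries, so the counts have no background beside them. The causes of the other shifts were not tested. The ATG8 sum in LC3b-/- stayed at 73.3% to 85.2% of WT. For the pairs, fits with fewer libraries allow too few splits for any p to pass, so they say nothing about stability.

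Members near 0 changed sign. Ulk2 (0.02) was -0.0016 with DESeq2, -0.06 with voom, -0.0025 with sex, -0.18 in females and -0.22 with the block, and -0.14 to 0.11 with 1 library left out. Atg5 (0.0046) was -0.02 with DESeq2 or its size factors, -0.12 with voom, -0.01 without a filter, -0.0045 with sex, and -0.13 to 0.12 with 1 library left out. Atg2b (0.01) was -0.01 with DESeq2 or its size factors and -0.07 to 0.10 with 1 library left out. Rubcn (0.03) was -0.03 with the block and -0.05 to 0.07 with 1 library left out, Atg9a (0.06) -0.02 to 0.12 and Nrbf2 (0.08) -0.04 to 0.16. The Gabarapl1/Gabarapl2 difference (-0.04) was 0.00097 without WT F1 and ran from -0.10 to 0.03 with 1 library left out.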
